A study of Mus musculus with 4 samples.

Results

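Very wide accessible regions are stretches of open chromatin that a peak caller reported as a single interval of 1500 bp or more. They were found by merging all intervals of 4 accessibility libraries that shared at least 1 base on chromosomes 1 to 19 and X, and by keeping each merged region in which any library had an interval of that width. This gave 63 of 120423 regions. The width chose them, so widths are given as a description and carry no test, and nothing is supported with them. The members were thus selected on the measured width of the called intervals.

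The libraries were made by Omni-ATAC-seq from C57BL/6J mouse bone marrow cells, and the study concerned the chemokine receptor Cxcr3 during the development of macrophages. There was 1 library for each of 4 groups: wild-type (WT) common myeloid progenitors and granulocyte-monocyte progenitors (CMP/GMP), the same progenitors from Cxcr3 knockout (Cxcr3-/-) mice, WT monocytes and Cxcr3-/- monocytes. The labels give hepatocellular carcinoma as the disease state of all 4, while the design text describes the cells of these libraries as cultured. It also has mice of both genotypes given diethylnitrosamine and tetrachloromethane to induce liver tumours, and whether the donors of the cultured cells were among them is not stated. No age or number of animals is stated either, and CMP and GMP were not separated. With 1 library per group no difference between groups has a replicate check, and no p-values are given. Each comparison of genotype below shares a library with each comparison of cell type, because each library enters 1 comparison of genotype and 1 of cell type. The comparisons of genotype share no library with each other, nor do those of cell type.

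ATAC-seq uses a transposase that cuts exposed DNA and leaves sequencing adapters there, so the number of fragments over a site reads how accessible it is. Most accessible sites are narrow gaps between nucleosomes at enhancers and start sites. Wider open stretches are known from the start sites of broadly expressed genes, where the DNA is often rich in CpG (a CpG island), and from the bodies and ends of genes that are transcribed at a very high rate, such as heat shock genes during stress.

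The sequences below are those just upstream of the start sites of 7 of the very wide regions, and they show what the DNA of such a region looks like. Each is the 250 bases before a start site that lies inside the region, printed 5′ to 3′ on the strand of the gene, from RefSeq on GRCm38.p6 (the mm10 build of the files). Capitals mark CpG dinucleotides. Sp3 (chr2:72980447-72980696, minus strand), Kctd12 (chr14:102982638-102982887, minus strand), Cdkn2c (chr4:109666757-109667006, minus strand) and Hmga1 (chr17:27556324-27556573, plus strand) are the start sites of 4 of the longest intervals. Nfe2l2 (chr2:75704664-75704913, minus strand) encodes a regulator of the response to oxidative stress and was on the list of myeloid transcription factors. Cdkn2aip (chr8:47713932-47714181, minus strand) had the most CpG among the regions whose upstream sequence could be taken whole, with 47, and Oxct1 (chr15:4026178-4026427, plus strand) had the fewest, with 6.
Sp3: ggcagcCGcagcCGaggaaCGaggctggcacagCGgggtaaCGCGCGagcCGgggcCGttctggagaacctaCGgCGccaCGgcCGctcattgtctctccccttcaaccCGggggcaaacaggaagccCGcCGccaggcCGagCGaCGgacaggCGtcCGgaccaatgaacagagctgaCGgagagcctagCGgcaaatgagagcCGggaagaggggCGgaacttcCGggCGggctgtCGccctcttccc
Kctd12: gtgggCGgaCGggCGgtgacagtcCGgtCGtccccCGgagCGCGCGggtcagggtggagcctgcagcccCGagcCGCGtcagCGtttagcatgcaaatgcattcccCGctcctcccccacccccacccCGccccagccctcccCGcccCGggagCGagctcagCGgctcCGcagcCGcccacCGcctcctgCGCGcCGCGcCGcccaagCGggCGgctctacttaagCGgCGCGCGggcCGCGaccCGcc
Cdkn2c: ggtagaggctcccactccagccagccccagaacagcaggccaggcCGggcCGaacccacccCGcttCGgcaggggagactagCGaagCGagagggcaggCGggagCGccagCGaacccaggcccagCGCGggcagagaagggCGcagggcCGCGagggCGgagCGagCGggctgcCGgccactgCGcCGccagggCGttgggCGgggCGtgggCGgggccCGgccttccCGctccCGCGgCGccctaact
Hmga1: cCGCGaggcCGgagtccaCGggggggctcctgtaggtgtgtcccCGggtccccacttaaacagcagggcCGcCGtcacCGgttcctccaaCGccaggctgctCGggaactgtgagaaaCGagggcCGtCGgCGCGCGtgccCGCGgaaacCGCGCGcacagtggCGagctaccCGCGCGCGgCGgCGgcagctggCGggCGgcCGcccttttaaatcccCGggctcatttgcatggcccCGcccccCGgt
Nfe2l2: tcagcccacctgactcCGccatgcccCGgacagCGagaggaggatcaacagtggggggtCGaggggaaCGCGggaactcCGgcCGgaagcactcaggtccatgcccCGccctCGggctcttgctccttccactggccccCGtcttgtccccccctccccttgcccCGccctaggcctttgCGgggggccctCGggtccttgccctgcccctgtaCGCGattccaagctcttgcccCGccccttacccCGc
Cdkn2aip: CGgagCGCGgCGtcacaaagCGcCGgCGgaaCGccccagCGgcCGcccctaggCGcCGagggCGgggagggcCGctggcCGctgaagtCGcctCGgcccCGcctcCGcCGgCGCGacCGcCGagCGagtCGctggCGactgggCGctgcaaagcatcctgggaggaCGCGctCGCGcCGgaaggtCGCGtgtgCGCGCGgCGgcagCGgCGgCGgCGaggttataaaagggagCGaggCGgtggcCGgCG
Oxct1: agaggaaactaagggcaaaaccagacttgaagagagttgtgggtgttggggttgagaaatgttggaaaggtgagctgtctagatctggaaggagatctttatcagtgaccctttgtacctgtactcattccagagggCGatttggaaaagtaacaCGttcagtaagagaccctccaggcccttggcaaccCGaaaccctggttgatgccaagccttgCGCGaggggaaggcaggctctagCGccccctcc
The stretches before Sp3, Kctd12, Cdkn2c and Hmga1 held 28, 36, 29 and 34 CpG. Nfe2l2 held 18, and its GC share of 70.4% was close to that of Sp3 (69.2%). Oxct1 stood apart, with a GC share of 52.0%.

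Across the very wide regions, 73 promoter windows of 300 bases (250 before and 50 after a start site) lay wholly inside one, from 55 genes in 41 regions. Their median ratio of observed to expected CpG was 0.911, against 0.830 for the 8025 windows inside any region called in all 4 libraries and 0.387 for all 32619 windows of the table. The ratio was above 0.6 in 93.2% of the windows in very wide regions, in 84.4% of the windows inside regions called in all 4 libraries and in 36.0% of all windows. The median GC share was 68.3%, 64.0% and 53.0% in the same order. The GC box GGGCGG, the sequence read by Sp1 and its relatives, was found on either strand in 75.3% of the windows in very wide regions, 72.4% of those in regions called everywhere and 35.9% of all windows. CCAAT, read by NF-Y, was found in 32.9%, 41.1% and 37.6%. GC boxes were thus about as common as in other accessible start sites, and CCAAT less so. CCGGAAGT, a core of ETS factor sites, was found in 3 of the 73 windows (4.11%), against 9.97% and 3.91%, and GAGGAAGT, the form favoured by the myeloid factor PU.1, also in 3 (4.11%), against 3.66% and 3.22%. TTGCNNAA, read by C/EBP factors, was found in 4 (5.48%), against 7.43% and 10.9%. TGANTCA, read by AP-1, and the palindrome read by NRF1 were found in none of the 73 windows, against 4.20% and 2.62% of the windows in regions called everywhere and 7.85% and 0.978% of all windows. Of these motifs, CCGGAAGT and GAGGAAGT share their last bases, GGAAGT. So the windows in very wide regions were somewhat richer in CpG than those of commonly accessible start sites, with a similar share of GC boxes. At 73 windows, a few windows set each of the low shares.

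**Figure D1:**
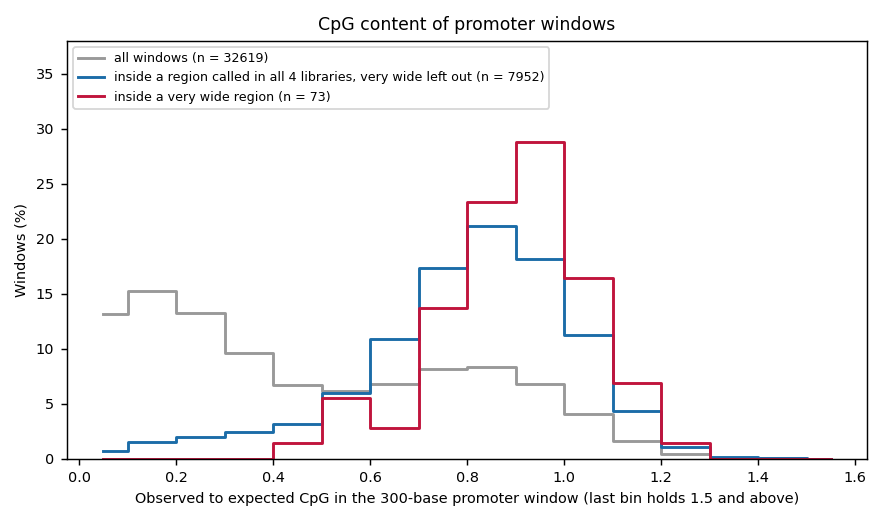
Share of promoter windows (percent, y axis) by the ratio of observed to expected CpG (x axis) for all 32619 windows, for windows in regions called in all 4 libraries without the very wide ones, and for the 73 windows inside a very wide region. The 73 windows have a median of 0.911 and none lies in the low peak that holds much of the full set.

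The libraries differed in depth and in the number of wide intervals. The deposited lists held 69521, 80171, 98257 and 78244 intervals in the 2 CMP/GMP libraries (WT, then Cxcr3-/-) and the 2 monocyte libraries (WT, then Cxcr3-/-), the order used throughout, with median widths of 224, 256, 220 and 237 bp. The background that the caller expected was 1.59, 2.43, 0.956 and 1.08 tags, and the median summit pileup (the number of tags stacked at the highest point of an interval) was 21, 29, 21 and 21. Intervals of 1500 bp or more numbered 8, 49, 16 and 14. The Cxcr3-/- CMP/GMP library thus had the highest background, the highest pileups and by far the most wide intervals. The part of depth in that excess was not tested. Regions at progenitor markers gave summed scaled pileups of 1331 and 1375 tags in the CMP/GMP libraries and 688 and 742 in the monocyte libraries, where Elane had no region and Mpo had none in Cxcr3-/- monocytes. Monocyte markers gave 891 and 1011 tags against 1593 and 1325. Single genes did not all follow these sums. Ccr2 had 43.6 and 70.9 tags in CMP/GMP against 27.9 and 21.3 in monocytes, and Ly6c2 40.0 and 43.6 against 27.0 and 30.7. The rest of the monocyte markers were higher in both monocyte libraries. Of the progenitor markers, Prtn3 had 27.9 and 32.5 against 50.2 and 31.9, and Cd34 264 and 227 against 172 and 258. The rest were lower in both monocyte libraries. Markers of other cell types were not at 0. Of 4 genes each, T cell markers had a region at 2 in every library (Lck and Cd3d, but not Cd3e or Cd8a) and 87.4 to 127 tags, and B cell markers at 3 or 4 and 105 to 139 tags. Erythroid markers had 161 and 154 tags in CMP/GMP and 109 and 105 in monocytes, where Gata1 had no region. Hepatocyte markers had 38.8 and 42.8 tags against 19.5 and 14.2, with Alb called in CMP/GMP alone, Apoa1 everywhere and Ttr and Cyp3a11 nowhere. Endothelial and stromal markers had a region at all 4 genes and 452 to 551 tags. The part of such cells in the values of the very wide regions was not tested.

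Of the 63 very wide regions, 48 reached 1500 bp in only 1 library, 8 in 2, 5 in 3, and 2 in all 4. Those in 1 library were mostly in Cxcr3-/- CMP/GMP, with 36, against 2 in WT CMP/GMP (H1f2, a linker histone gene, and Mesd, a chaperone of lipoprotein receptors), 5 in WT monocytes and 5 in Cxcr3-/- monocytes. Without the Cxcr3-/- CMP/GMP library, 27 regions would meet the rule. The median longest interval over the very wide regions was 1043 bp in WT CMP/GMP, 1567 bp in Cxcr3-/- CMP/GMP, 1267 bp in WT monocytes and 1012 bp in Cxcr3-/- monocytes.

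Width was often a matter of whether neighbouring intervals were joined. In Cxcr3-/- CMP/GMP, 56 of the very wide regions were 1 unbroken interval and 7 were broken into 2. In WT CMP/GMP 25 were unbroken and 37 broken, in WT monocytes 28 and 31, and in Cxcr3-/- monocytes 25 and 34, with up to 5 pieces in each of these 3 libraries. The median share of a region's length covered by intervals was 78.6%, 97.8%, 87.0% and 82.8% in the order of the libraries above. Pieces in the other libraries therefore covered most of the same DNA.

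Very wide regions were also tall. The lowest, median and highest summit pileup was 19, 84.5 and 910 tags in WT CMP/GMP (62 regions called), 43, 141 and 1703 in Cxcr3-/- CMP/GMP (63), 13, 96 and 597 in WT monocytes (59), and 12, 75 and 572 in Cxcr3-/- monocytes (59). Each of those medians lay above the library's median over all regions, which was 21, 29, 21 and 22 tags. Width and height come from the same intervals, so this too is a description of what was chosen.

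**Figure D2:**
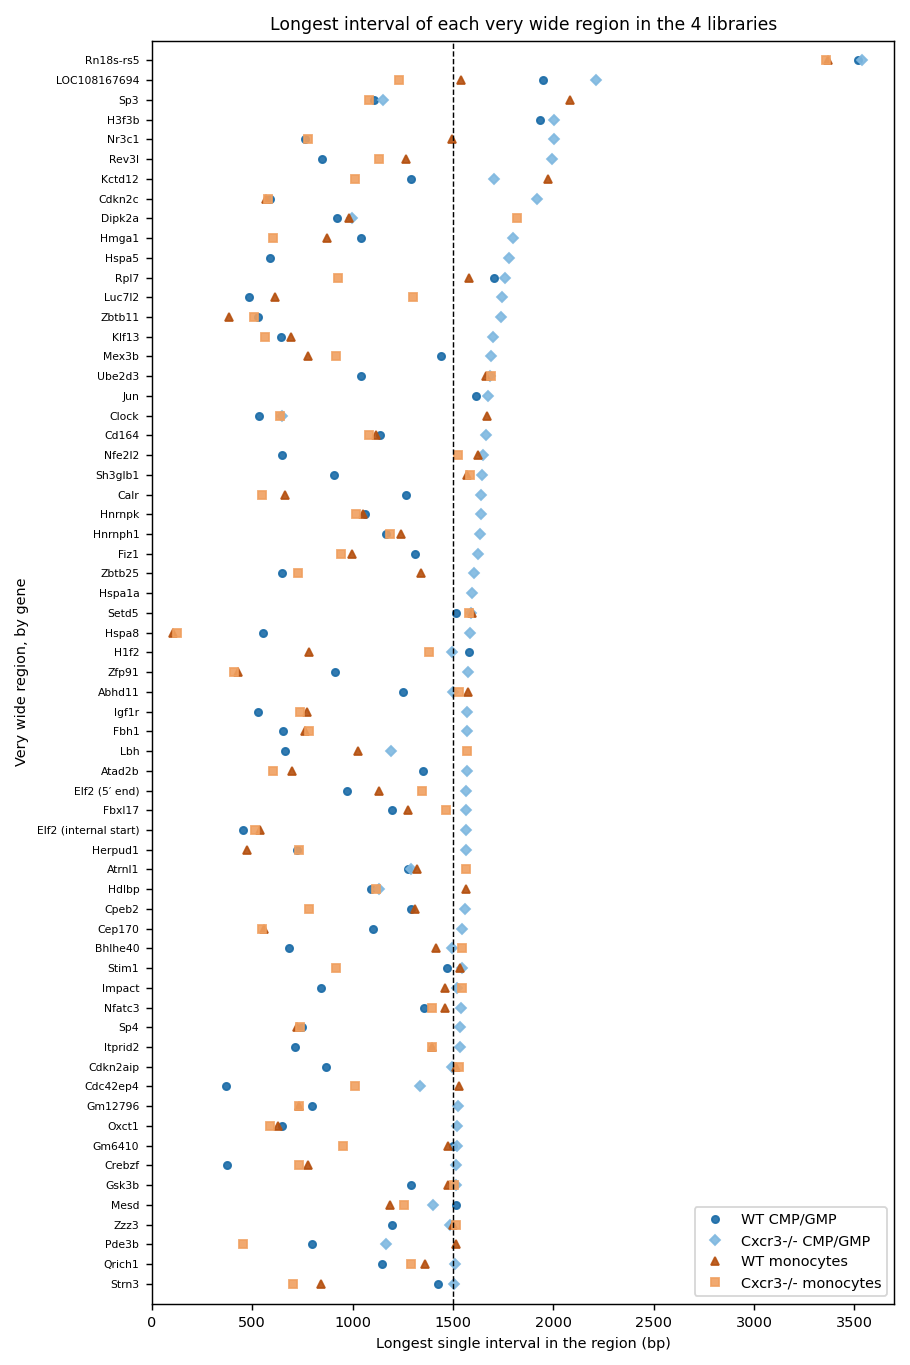
Longest interval (bp, x axis) of each of the 63 very wide regions (y axis, ordered by their longest interval) in the 4 libraries, with the 1500 bp minimum as a dashed line. A missing point means that no interval was called in that library. Most points beyond the line are those of the Cxcr3-/- CMP/GMP library, and the 2 regions with 4 points beyond it are Rn18s-rs5 and Setd5.

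The 4 regions just inside the minimum were at Strn3 (1504 bp), Qrich1 (1508 bp), Pde3b (1513 bp) and Zzz3 (1514 bp). Just outside it were Exoc8 (1498 bp), Acss1 (1497 bp), Ro60 (1493 bp) and Prdm10 (1492 bp). All 4 outside regions sat at start sites, as did 3 of the 4 inside.

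Almost all very wide regions were open in both cell types. Of the 63, 59 (93.7%, exact 95% Clopper-Pearson interval 84.5 to 98.2%) had an interval in all 4 libraries, against 37.0% of all regions. None was called in monocytes alone, against 29.6% of all regions. The remaining 4 (6.35%), described below, were called in CMP/GMP and in neither monocyte library, against 17.8% of all regions. At 500 to 750 bp, 86.7% of regions were called in all 4 libraries. Regions from 750 up to 1500 bp were called everywhere more often than the very wide ones. Of those whose longest interval was 750 to 1000, 1000 to 1250 and 1250 to 1500 bp, 97.9%, 99.3% and 99.4% were called in all 4 libraries. In monocytes alone 0.531%, 0.161% and 0% of them were called. Among the regions of 1000 to 1250 bp (1240 regions) and 1250 to 1500 bp (308 regions), 0.403% and 0.325% were called in CMP/GMP alone. Width chose the regions and tall intervals are called more readily, and the part of either in the high share called everywhere was not tested.

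Gene starts were the usual position. A start site of the promoter table lay inside 44 of the 63 very wide regions (69.8%, 57.0 to 80.8%), against 8.83% of all regions, and 13 of these 44 held start sites of both strands, as did 1385 of the 10631 regions that hold one. The promoter table holds no gene of chromosome 18 and 79.9% of protein-coding genes. Within 1 kb of either end of a protein-coding gene body lay 46 very wide regions (73.0%, 60.3 to 83.4%), against 16.1% of all. The share with a start site rose with width over all regions, from 27.9% at 500 to 750 bp through 59.4% and 69.6% to 74.4% at 1250 to 1500 bp. At 69.8%, very wide regions did not continue that rise. The highest summit lay within 250 bp of a start site in 28 of the 44 regions, at a median distance of 145.5 bp, and at most 1296 bp away. With Luc7l2 and Setd5, placed by the 5′ end of their genes, start-site regions numbered 46. The other 17 were 5 at or past the 3′ end of a gene, 4 at a gene end whose strand the table did not give (Rev3l, Rpl7 with Rdh10, Bhlhe40 and Pde3b), 4 inside a gene body (Nr3c1, Klf13, Cpeb2 and Impact) and 4 outside protein-coding genes (Rn18s-rs5, Gm12796, Gm6410 and one beyond Hspa8). Exon and intron limits were not used here.

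Of the start-site regions described in full, Setd5, Ube2d3, Igf1r, Stim1, Nfatc3, Gsk3b and Herpud1 were picked after their values were seen, and the rest by their width, ratio or place on a gene list. Sp3 (chr2:72978928-72981012), a ubiquitous GC-box binding factor, had its longest interval of 1106 bp in WT CMP/GMP, 1152 bp in Cxcr3-/- CMP/GMP, 2083 bp in WT monocytes and 1080 bp in Cxcr3-/- monocytes. Its summit pileup was 92, 149, 107 and 68 tags in the same order. WT monocytes alone had it unbroken past the minimum, although their pileup was not the highest. Sp4 (chr12:118301017-118302586), a related factor, reached 1537 bp in Cxcr3-/- CMP/GMP alone and measured 748, 721 and 737 bp in WT CMP/GMP, WT monocytes and Cxcr3-/- monocytes. Its pileups were 221, 357, 310 and 332 tags in the usual order, among the highest of the start-site regions.

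Cdkn2c (chr4:109665283-109667246), which encodes the CDK4 and CDK6 inhibitor p18, was 1921 bp wide in Cxcr3-/- CMP/GMP and 587, 570 and 579 bp in WT CMP/GMP, WT monocytes and Cxcr3-/- monocytes, with 74, 101, 82 and 74 tags in the usual order. In the other 3 libraries the longest piece was therefore of much the same width. They had 2, 5 and 4 pieces there, which covered 745, 1272 and 994 bp in all. Hmga1 (chr17:27555188-27557013), an architectural chromatin protein, measured 1044, 1799, 873 and 602 bp with 63, 115, 77 and 33 tags. H1f2 (chr13:23738696-23740276) measured 1581, 1493, 785 and 1379 bp with 64, 120, 88 and 54 tags. It was the one of these 3 that was widest in WT CMP/GMP. Setd5 (chr6:113076006-113077602), a chromatin regulator with a SET domain, measured 1514, 1589, 1597 and 1580 bp with 128, 206, 131 and 87 tags, and was the only protein-coding gene past the minimum in every library. Of the 63 regions it was one of 2 whose width passed the minimum everywhere, and its pileup still differed between libraries.

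Hnrnpk (chr13:58401466-58403105), which shares its region with the oppositely oriented Rmi1, measured 1063, 1640, 1050 and 1017 bp with 93, 141, 91 and 78 tags. Hnrnph1 (chr11:50376958-50378631) measured 1168, 1637, 1241 and 1184 bp with 51, 107, 52 and 42 tags. Both genes encode nuclear proteins that bind pre-mRNA, and both were widest in Cxcr3-/- CMP/GMP. Ube2d3 (chr3:135437802-135439503), a ubiquitin-conjugating enzyme, measured 1042, 1684, 1663 and 1688 bp with 167, 274, 177 and 130 tags. WT CMP/GMP was the library that stood apart there. Nfe2l2 (chr2:75703400-75705080) was alike in this, with 646 bp in WT CMP/GMP against 1648, 1626 and 1525 bp, and 157, 274, 179 and 126 tags.

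Igf1r (chr7:67950837-67952431), the receptor of insulin-like growth factor, measured 530, 1572, 772 and 736 bp with 55, 103, 66 and 48 tags. Gsk3b (chr16:38088260-38089813), a kinase of the Wnt and insulin pathways, measured 1292, 1516, 1474 and 1503 bp with 195, 318, 200 and 202 tags. Stim1 (chr7:102266521-102268219), the calcium sensor of the endoplasmic reticulum, measured 1472, 1546, 1536 and 917 bp, and Nfatc3 (chr8:106058699-106060238), a transcription factor that calcium signals activate, 1357, 1540, 1461 and 1394 bp. Igf1r had its longest interval under 800 bp in 3 libraries, while those of Nfatc3 and Gsk3b were near the minimum in every library. At Igf1r the pieces in WT CMP/GMP, WT monocytes and Cxcr3-/- monocytes still covered 70.4%, 85.1% and 72.6% of the region. Some very wide regions thus had a long unbroken interval throughout and others in a single library. Herpud1 (chr8:94386044-94387630), a gene of the endoplasmic reticulum stress response, belonged to the second kind, with 724, 1565, 473 and 732 bp and 77, 140, 116 and 73 tags. Elf2, an ETS factor, had 2 very wide regions. At its 5′ end (chr3:51340291-51341857) the longest interval was 970, 1567, 1133 and 1345 bp with 60, 130, 90 and 35 tags, and at an internal start site (chr3:51276016-51277695) 455, 1566, 538 and 511 bp with 112, 194, 132 and 111 tags.

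Regions that reached the minimum in one monocyte library alone were few. Clock (chr5:76303571-76305250), a core factor of the circadian clock, measured 531, 650, 1669 and 637 bp with 24, 43, 57 and 35 tags. Hdlbp (chr1:93444758-93446320), an RNA-binding protein, measured 1090, 1131, 1563 and 1117 bp with 37, 82, 68 and 34 tags. In WT monocytes alone 5 regions passed, Sp3, Clock, Hdlbp, Cdc42ep4 (1528 bp) and Pde3b (1513 bp). In Cxcr3-/- monocytes alone Dipk2a (chr9:94537097-94538949) measured 1819 bp against 924, 997 and 981 bp in the others, with 146, 240, 134 and 144 tags. Lbh (1570 bp), Atrnl1 (1564 bp), Bhlhe40 (1546 bp) and Zzz3 (1514 bp) followed. Kctd12 (chr14:102981469-102983475) passed in Cxcr3-/- CMP/GMP (1705 bp) and in WT monocytes (1975 bp) and measured 1290 bp in WT CMP/GMP and 1012 bp in Cxcr3-/- monocytes.

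Regions inside gene bodies, and at gene ends of unstated strand, came next. Nr3c1 and Impact are on chromosome 18, of which the promoter table holds no gene, so whether a start site lies in these regions could not be read from it. Nr3c1 (chr18:39489133-39491195), the glucocorticoid receptor, measured 761, 2003, 1493 and 776 bp with 76, 135, 66 and 62 tags. Klf13 (chr7:63910931-63912709), a zinc finger transcription factor, measured 642, 1698, 695 and 564 bp with 65, 134, 94 and 89 tags. Both were widest in Cxcr3-/- CMP/GMP, and for Nr3c1 the WT monocyte interval fell just short of the minimum. At one end of Bhlhe40 (chr6:108659302-108660864), a transcriptional repressor expressed in activated myeloid cells, the longest interval was 682, 1495, 1415 and 1546 bp, with 71, 131, 149 and 141 tags. Rev3l (chr10:39731161-39733177), the catalytic subunit of a DNA polymerase that copies damaged templates, measured 845, 1993, 1267 and 1130 bp at one gene end with 85, 152, 88 and 83 tags. Bhlhe40 was the one of these with more tags in each monocyte library than in either CMP/GMP library. Between Rpl7, a ribosomal protein gene, and Rdh10 (chr1:16104180-16105986) the longest interval was 1704, 1761, 1578 and 925 bp, with 72, 114, 92 and 65 tags. Impact (chr18:12973013-12974565), a regulator of the translational stress response, measured 841, 1519, 1458 and 1544 bp with 72, 107, 94 and 71 tags. The region at Rpl7 passed the minimum in 3 libraries, all but Cxcr3-/- monocytes, and that at Impact in 2, both of them Cxcr3-/-. Cpeb2 (chr5:43232543-43234137), which encodes a regulator of mRNA translation, measured 1293, 1562, 1312 and 782 bp with 90, 166, 165 and 165 tags. Pde3b (chr7:114414843-114416494), a cyclic nucleotide phosphodiesterase, measured 798, 1168, 1513 and 454 bp with 19, 45, 39 and 37 tags.

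Beyond protein-coding genes lay the longest interval of all. Rn18s-rs5 (chr17:39843165-39846704), an annotated copy related to 18S ribosomal RNA, gave 3520, 3540, 3369 and 3359 bp and 910, 1703, 597 and 572 tags. Ribosomal DNA is present in many near-identical copies, so reads from other copies may be counted there and the values are uncertain. The next longest, LOC108167694 at the end of chromosome 9 (chr9:124422548-124424827; 1950, 2213, 1542 and 1231 bp, 139, 252, 139 and 115 tags), is a predicted gene counted among the start-site regions, and how many copies its sequence has was not examined. The 24 start-site regions whose width is not given here in every library had longest intervals from 1504 bp (Strn3) to 1744 bp (Luc7l2). Gm12796 (chr4:101292011-101293602), a predicted gene 26729 bp from Jak1, and Gm6410 (chr8:4677320-4678850), 44748 bp from Zfp958, were the other 2 that lay far from coding genes. Gm12796 had 43, 63, 93 and 67 tags, and Gm6410 203, 305, 133 and 152.

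The gene lists placed only a few of the very wide regions. A gene was counted where such a region reached its body or 1 kb beyond either end. That held for 70 of 21627 protein-coding genes (0.324%). Of haematopoietic and myeloid transcription factors it held for 3 of 75 (Klf13, Nfe2l2 and Bhlhe40), and of immediate early genes for 1 of 31 (Jun). Of splicing and RNA-binding factors it held for 2 of 40 (Hnrnpk and Hnrnph1). Of histone genes, core and linker, it held for 2 of 28 (H3f3b and H1f2). None of 30 signalling feedback genes, 50 chromatin regulators, 36 Hox genes, 50 developmental regulators, 30 housekeeping genes, 27 host genes of non-coding RNAs or 60 myeloid surface and effector genes had one. Cxcr3 itself had no very wide region. At one end of the gene all 4 libraries had an interval, of 655, 750, 629 and 563 bp with 34, 84, 41 and 23 tags, so both knockout libraries gave tags there. Inside the gene Cxcr3-/- CMP/GMP had 208 bp with 25 tags and WT monocytes 110 bp with 16 tags. The labels do not say which part of the gene was removed, so these values do not check the genotypes.

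Regions at or past the 3′ end of a gene formed a separate group, and it held all 4 very wide regions that were called in CMP/GMP alone. These lay at Jun, H3f3b, Hspa5 and Hspa1a, with Calr and Hspa8 as 2 similar regions called more weakly in monocytes. Jun encodes a subunit of AP-1, H3f3b the replacement histone H3.3, Hspa5 the endoplasmic reticulum chaperone BiP, Hspa1a an inducible cytosolic Hsp70, Hspa8 its constitutive relative, and Calr the calcium-binding chaperone calreticulin. This makes 4 chaperone genes of 6, a description made after the values were seen.

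The region of Jun (chr4:95048586-95050259) covered the last 1224 bp of the gene and ran to 450 bp past its 3′ end. Its summit pileup was 160 tags over 1615 bp in WT CMP/GMP and 248 tags over 1674 bp in Cxcr3-/- CMP/GMP. Neither monocyte library had an interval there, although weaker intervals were called elsewhere down to 5 tags in WT and 6 tags in Cxcr3-/- monocytes. At the start of Jun a region of its own had 134, 252, 150 and 146 tags in the usual order. In the progenitors the 3′ end thus had about as many tags as the start, while in monocytes only the start was called.

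H3f3b had its region (chr11:116019933-116021958) entirely past the gene, from 3 to 2028 bp beyond the 3′ end. It measured 84 tags over 1935 bp in WT CMP/GMP and 127 tags over 2005 bp in Cxcr3-/- CMP/GMP, with no interval in monocytes. The region taken as its start site (chr11:116023876-116024819) lay inside the annotated gene body, which ends at 116026039. It had 82, 161, 121 and 80 tags in the usual order of the libraries. Those start-site intervals were 319 and 423 bp wide in CMP/GMP and 765 and 926 bp in monocytes, so which region was wider differed between the cell types.

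Hspa5 had its region (chr2:34778032-34779810) from 1503 to 3281 bp past the 3′ end, inside the neighbouring gene Rabepk, with 33 tags over 589 bp in WT and 60 tags over 1779 bp in Cxcr3-/- CMP/GMP. At its start site the tags were 108, 230, 170 and 97. Hspa1a had its region (chr17:34968386-34969982) over the last 624 bp of the gene and 973 bp past it, and it was called in Cxcr3-/- CMP/GMP alone, with 44 tags over 1597 bp. At the start site of Hspa1a were 31, 45, 56 and 38 tags. Hspa1a has a near-identical neighbour, Hspa1b, and reads over the part of the region inside the gene may come from either, so these values are uncertain.

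Calr and Hspa8 showed the same arrangement with intervals in all 4 libraries. The region past Calr (chr8:84839476-84841199) ran from 889 to 2612 bp beyond the 3′ end and had 112, 160, 58 and 54 tags and longest intervals of 1266, 1642, 662 and 546 bp. Tags at the start of Calr were 151, 251, 145 and 126. Past Hspa8 (chr9:40806350-40807935), from 1148 to 2733 bp beyond the end with the higher coordinate, the tags were 39, 88, 13 and 12 and the longest intervals 552, 1586, 105 and 127 bp. The strand of Hspa8 is not in the table. At the other end of Hspa8 the tags were 148, 216, 159 and 111. Scaled for depth, the tags were 136, 118, 54.0 and 63.8 past Calr and 47.2, 65.0, 12.1 and 14.2 past Hspa8. Both regions passed the minimum in Cxcr3-/- CMP/GMP alone, so the rule favours high values in that library.

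Scaled for depth, the monocyte to CMP/GMP log2 ratio of the region past Calr was −1.33 in WT (95% counting interval −1.81 to −0.86) and −0.89 in Cxcr3-/- (−1.36 to −0.44). At the start of Calr it was −0.44 (−0.78 to −0.10) and −0.32 (−0.64 to −0.0013). These intervals cover counting error only, and tags are not all independent molecules since the labels name no molecular identifiers. The ratio past Hspa8 was −2.20 (−3.20 to −1.32) in Cxcr3-/-, and the WT libraries had too few tags there for a ratio. At the other end of Hspa8, WT gave −0.28 (−0.61 to 0.06) and Cxcr3-/- also −0.28 (−0.63 to 0.05). Start-site ratios of Jun were −0.22 (−0.56 to 0.13) and −0.11 (−0.41 to 0.19), and of H3f3b 0.18 (−0.24 to 0.60) and −0.33 (−0.74 to 0.07). For Hspa5 they were 0.27 (−0.08 to 0.64) in WT and −0.57 (−0.92 to −0.22) in Cxcr3-/-. For Hspa1a they were 0.47 (−0.19 to 1.15) and 0.43 (−0.23 to 1.09). The counting intervals at the start sites of the 5 genes of stated strand and at the other end of Hspa8 thus held 0, except at Calr in both genotypes and at Hspa5 in Cxcr3-/-.

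**Figure D3:**
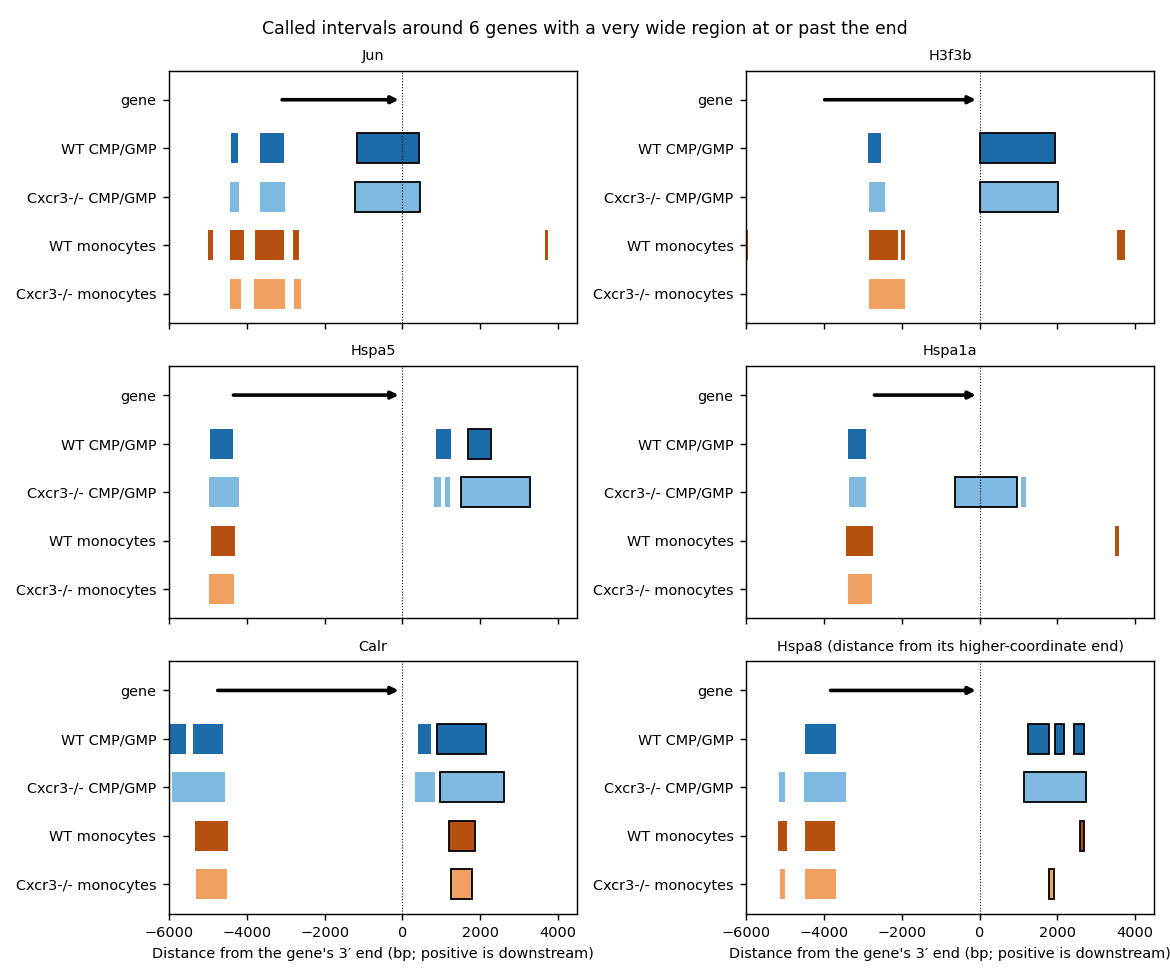
Called intervals (bars) in the 4 libraries around 6 genes, by distance in bp from the end of the gene (x axis, positive past the end). The arrow is the gene body, pointing at its 3′ end (for Hspa8 at its higher-coordinate end), and outlined bars belong to the very wide region. For each gene the widest bar at or past the end is in a CMP/GMP track, for Hspa1a in that of Cxcr3-/- alone. Bars at or near the start appear in all 4 tracks, and for H3f3b they lie inside the drawn gene body.

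Regions of the same kind were looked for at a lower width, after these values had been seen. Of the 1611 regions with an interval of at least 1000 bp, 10 were called in CMP/GMP alone and 2 in monocytes alone. Of the 10, 4 were the regions at Jun, H3f3b, Hspa5 and Hspa1a that had prompted the search, and 6 were further ones. Those 4, and 2 of the further ones (Hnrnpa3 and Fosb), lay at or past the 3′ end of a gene. Counted without start-site regions, that position had 32 regions of this width, 26 of which were called in all 4 libraries. The 4 are counted again here, so these counts are no independent check of the pattern. None of the 1156 start-site regions of that width was called in CMP/GMP alone. In cells measured in bulk, fewer cells with an open site and a less open site in every cell cannot be told apart.

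The next comparison asked how accessibility of the very wide regions differed between monocytes and CMP/GMP. A ratio needed an interval in each of the libraries compared and a mean of at least 30 tags at the summit, each library scaled by its median ratio over the regions called in all 4. That left 57 of the 63 in WT and 59 in Cxcr3-/-, and the regions called in CMP/GMP alone fell out because they have no monocyte value. The median log2 ratio of the very wide regions was −0.12 in WT, against 0.15 over all 25520 regions measured. In Cxcr3-/- it was −0.22, against 0.03 over all 29547 regions. The very wide regions thus lay 0.26 and 0.24 below the median of all regions in WT and Cxcr3-/-. These gaps depend on the minimum and on how a region's height is read. With no minimum of tags, which lets in many weak regions, the medians were −0.12 against −0.09 over all regions in WT and −0.22 against 0.04 in Cxcr3-/-. With pileups summed over the pieces of a region, they were −0.22 against 0.14 in WT and 0.17 against 0.04 in Cxcr3-/-, where the very wide regions then lay above. Over all regions, in width classes of 500 to 750, 750 to 1000, 1000 to 1250 and 1250 to 1500 bp, the medians were 0.14, 0.02, −0.04 and −0.07 in WT and 0.01, −0.08, −0.13 and −0.10 in Cxcr3-/-. The libraries did not enter the rule evenly either. Of the 63 regions, 49 reached 1500 bp in Cxcr3-/- CMP/GMP and 36 only there, so the rule favours high values in that library, and nothing is read from these medians.

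Few of the very wide regions with a ratio differed between the cell types by more than 2-fold. The 4 called in CMP/GMP alone have no ratio and are not counted, nor is Hspa8 in WT. In WT 1 was past 2-fold lower in monocytes (Calr) and none higher, against 5.22% and 13.4% of all regions. In Cxcr3-/- 3 were lower (Hspa8, the region at the 5′ end of Elf2, and Hmga1) and none higher, against 7.44% and 13.1%. None of the 57 measured in both genotypes was past 2-fold in both, against 2.86% lower and 8.4% higher of all regions. These shares include many regions of low pileup. With a minimum of 60 tags in WT, 1 of 52 was lower and none higher, against 197 lower and 724 higher of all 9170.

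Counting intervals that left out 0 were found at 17 regions in WT (4 higher and 13 lower in monocytes) and at 24 in Cxcr3-/- (5 higher and 19 lower). Over all regions measured, such intervals lay above 0 at 25.4% and below it at 13.2% in WT, and at 24.6% and 17.9% in Cxcr3-/-. Counting intervals narrow with more tags and the very wide regions were tall, so these shares are not like for like. Bhlhe40 was higher in monocytes in both, with log2 ratios of 0.69 (0.27 to 1.12) in WT and 0.78 (0.43 to 1.14) in Cxcr3-/-. Gm12796 had 0.73 (0.20 to 1.29) and 0.77 (0.25 to 1.29), and Cpeb2 0.49 (0.11 to 0.88) and 0.67 (0.35 to 0.99). Those 3 were the ones whose intervals lay above 0 in both genotypes. Clock gave 0.87 (0.16 to 1.62) in WT, the highest value there, and 0.38 (−0.31 to 1.06) in Cxcr3-/-. Clock reached 1500 bp in WT monocytes alone and Bhlhe40 in Cxcr3-/- monocytes alone, so the rule favours their high values in those libraries. Sp4 gave 0.11 (−0.15 to 0.36) in WT and 0.57 (0.35 to 0.79) in Cxcr3-/-, and Mex3b, an RNA-binding protein, 0.28 (−0.09 to 0.66) and 0.54 (0.22 to 0.86).

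Lower in monocytes beside Calr were Rn18s-rs5 (−0.99 in WT, −1.14 to −0.84, and −0.90 in Cxcr3-/-, −1.03 to −0.76) and Gm6410 (−0.99, −1.32 to −0.67, and −0.33, −0.62 to −0.04). Fiz1, a zinc finger protein that interacts with the receptor Flt3, gave −0.69 (−1.22 to −0.17) and −0.61 (−1.18 to −0.05). Cep170, a protein of centrosomes and microtubules, gave −0.55 (−0.84 to −0.26) and −0.34 (−0.61 to −0.09). The zinc finger gene Zbtb11 gave −0.42 (−0.78 to −0.07) and −0.60 (−0.95 to −0.26). These 5 regions, with Calr, Strn3 and LOC108167694, were the 8 whose intervals lay below 0 in both genotypes. The 5′ end of Elf2 gave 0.20 (−0.28 to 0.70) in WT and −1.21 (−1.80 to −0.67) in Cxcr3-/-, and Hmga1 −0.09 (−0.59 to 0.41) and −1.12 (−1.73 to −0.55). At the internal start site of Elf2 the values were −0.14 (−0.52 to 0.23) and −0.13 (−0.48 to 0.22), so its 2 regions did not move together. Both regions of Elf2 and that of Hmga1 reached 1500 bp in Cxcr3-/- CMP/GMP alone, so the rule favours high values there.

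These directions depend on the scaling. Scaled instead by the background tags of each library, all ratios of monocytes to CMP/GMP shift up by 1.11 in WT and 0.49 in Cxcr3-/-, and the medians become 1.00 and 0.27. Past 2-fold would then be 28 regions higher and none lower in WT, beside 16983 and 169 of all 25520, and 5 higher and 1 lower in Cxcr3-/-, beside 7818 and 759 of all 29547. With that scaling Rn18s-rs5, Gm6410 and Fiz1 turn to 0.12, 0.12 and 0.42 in WT, and Gm6410 to 0.16 in Cxcr3-/-. Any ratio below 0 by less than the shift turns too, among them Cep170 in both genotypes and Zbtb11 in WT. Of the 13 regions whose intervals lay below 0 in WT, Calr alone stays below 0. The medians over all regions shift by the same amounts.

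**Figure D4:**
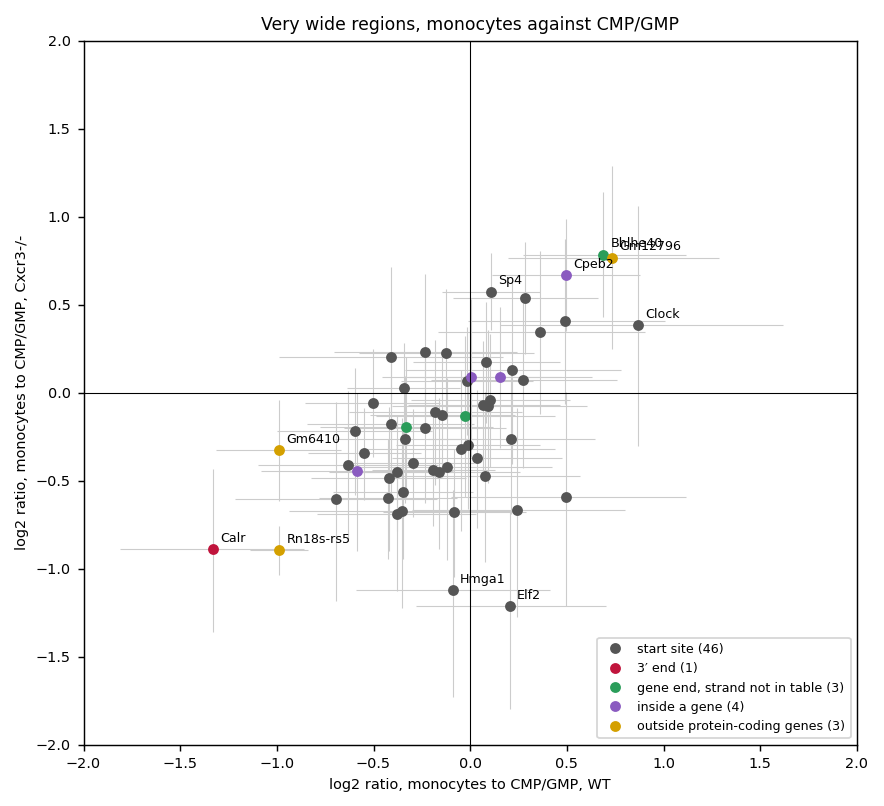
Monocyte to CMP/GMP log2 ratio of scaled summit pileups in WT (x axis) and Cxcr3-/- (y axis) for the 57 very wide regions measured in both, coloured by position, with 95% counting intervals as grey lines. Most points lie left of and below 0, Calr lies lowest in WT, and Bhlhe40, Gm12796 and Cpeb2 are above 0 in both. Hspa8 is not drawn because it had no ratio in WT.

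The last comparison asked what loss of Cxcr3 changed in these regions. In CMP/GMP, 62 regions were measured. The median log2 ratio of Cxcr3-/- to WT was 0.09, against 0.04 over all 29454 regions, and the values ran from −0.31 to 0.53. None was past 2-fold in either direction, against 0.122% of all regions higher and 0.153% lower. Counting intervals left out 0 at 2 regions, both higher in Cxcr3-/-, against 2.5% of all regions higher and 2.03% lower. They were Rn18s-rs5 (0.19, 0.07 to 0.31) and Zzz3, a histone-reader subunit of an acetyltransferase complex (78 tags in WT and 172 in Cxcr3-/-, 0.43, 0.03 to 0.83). Here too the Cxcr3-/- library supplied most of the wide intervals that chose the regions, so nothing is read from the median, which with summed pileups was −0.24, against 0.04 over all regions.

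In monocytes 58 regions were measured, with a median of 0.01, against 0.01 over all 30652 regions, and values from −1.02 to 0.58. Of these, 1 was past 2-fold lower and none higher, against 0.395% and 0.274% of all regions. This was the 5′ end of Elf2, with 90 tags in WT monocytes and 35 in Cxcr3-/- monocytes (−1.02, −1.62 to −0.44), beside 60 and 130 tags in WT and Cxcr3-/- CMP/GMP. Hmga1 had 77 and 33 tags (−0.88, −1.51 to −0.27), Cd164, a sialomucin of haematopoietic progenitors, 74 and 35 (−0.74, −1.36 to −0.14), and Hdlbp 68 and 34 (−0.65, −1.29 to −0.04). In these 4 genes Cxcr3-/- monocytes had the fewest tags of the 4 libraries, before and after scaling. Hdlbp reached 1500 bp in WT monocytes alone, so for it the rule favours a high value in that library.

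Intervals lay above 0 at 9 of the 58 regions and below it at these 4, against 6.24% and 4.26% of all regions. Here as in CMP/GMP, counting intervals narrow with more tags and the very wide regions were tall, so these shares are not like for like. The 9 were led by Lbh, a regulator of Wnt-driven transcription (92 and 108 tags, 0.58, 0.16 to 0.99), Gm6410 (133 and 152 tags, 0.54, 0.19 to 0.88), Dipk2a (134 and 144 tags, 0.45, 0.10 to 0.80) and Sp4 (310 and 332 tags, 0.44, 0.22 to 0.67). The raw tags of these 4 differ little, and the ratio comes from the scaling by factors of 1.08 in WT and 0.846 in Cxcr3-/-. Lbh and Dipk2a reached 1500 bp in Cxcr3-/- monocytes alone, so for them the rule favours high values in that library. Scaling by background tags shifts all ratios of this comparison by −0.52. Sp4 then becomes −0.08, Dipk2a −0.07, Cpeb2 −0.17 and Rn18s-rs5 −0.24. Cep170, Gsk3b and Mex3b, the rest of the 9 beside Lbh and Gm6410, also turn below 0. Lbh and Gm6410 fall to 0.06 and 0.02. With that scaling 4 regions are past 2-fold lower beside 2823 of all 30652. Of the 58 regions measured in both cell types, 25 had opposite signs of the genotype ratio in them, against 56.6% of all regions measured in both, and in none of these 25 did both counting intervals leave out 0. The difference between the 2 genotype ratios was not tested.

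**Figure D5:**
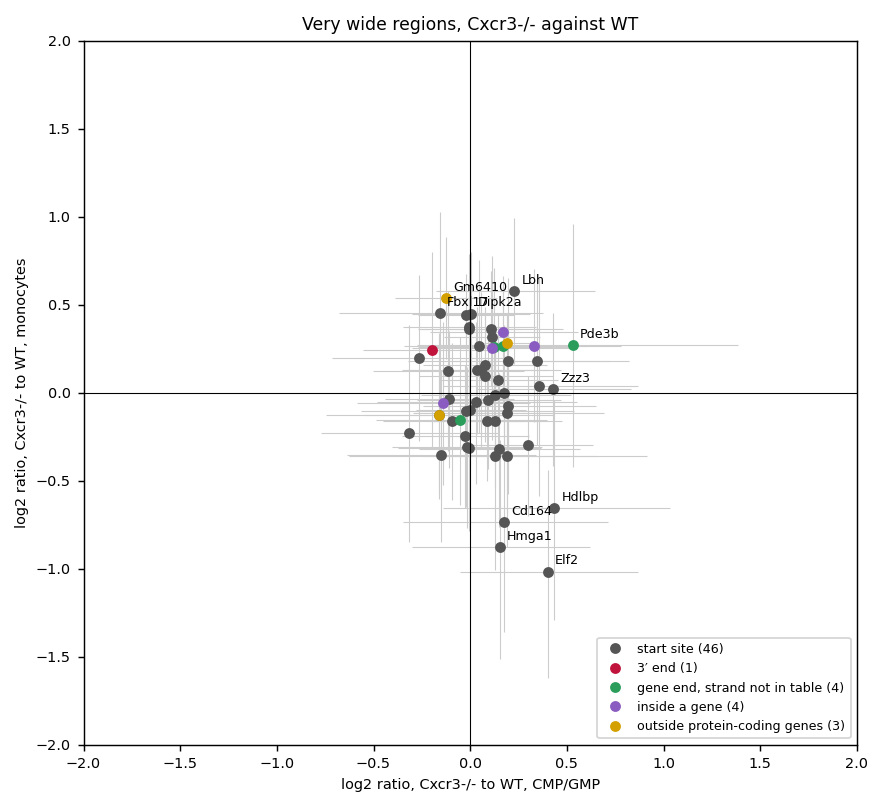
Cxcr3-/- to WT log2 ratio of scaled summit pileups in CMP/GMP (x axis) and monocytes (y axis) for the 58 very wide regions measured in both, coloured by position, with 95% counting intervals as grey lines. Points spread more in monocytes (−1.02 to 0.58) than in CMP/GMP, and Elf2, Hmga1, Cd164 and Hdlbp are the lowest in monocytes.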

How the data were processed

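Omni-ATAC-seq was done on 4 samples, grouped by their labels, with 75 bp paired-end reads. The tools named are Trim Galore, Bowtie2 and SAMtools, with mm10 as the genome build, per the submitters' processing notes. Which program called the peaks, and whether the duplicate runs were pooled first, is not given in the sources. The deposited files hold, per sample, each interval's score (10 times its −log10 q, cut to a whole number, in at least 99.988% of intervals), fold enrichment (a ratio of summit pileup to background), −log10 p and −log10 q, all computed by the authors' caller. From the deposited fold and −log10 p the whole-number tag pileup at the summit was recovered under a Poisson background with 1 added tag, within a tolerance of 0.002, for all but 1 interval, in WT monocytes. Background is the most frequent expected pileup among the intervals of a library.

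Intervals sharing 1 base were merged. Pileups were divided by 0.826, 1.35, 1.08 and 0.846 (the order of libraries used above), medians over 44591 regions called in all 4, and the highest per region was compared. Ratios have exact conditional binomial 95% intervals. Genes come from RefSeq on GRCm38.p6. The script steps were tested on simulated data (Python 3.11.15, NumPy 2.4.6, pandas 2.3.3, SciPy 1.17.1). Named were the 12 longest members, list members, the 4 highest and lowest per comparison, the 5 farthest from genes, the 4 widest per library, the 4 on either side of the minimum, the 3 called in fewest libraries and Cxcr3, and others chosen after their values were seen. The members and the 11 gene lists were chosen with earlier results of these data known.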

Additional observations from a re-analysis of the deposited data

How the results depend on the processing

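The number of very wide regions depends on the width set, with 1611 at 1000 bp, 5 at 2000 bp and 1 at 3000 bp, 15 where 2 libraries had to pass and 124 by merged width. Leaving out 1 library gave 27 to 61, with 27 without Cxcr3-/- CMP/GMP. The share called in all 4 was 99.1% at 1000 bp and 80.0% at 2000 bp (5 regions), where 60.0% lay at a gene end. With background scaling the median log2 ratios were 0.19 and −0.51 for genotype in CMP/GMP and monocytes and 1.00 and 0.27 for cell type in WT and Cxcr3-/-, with 4, 28 and 6 regions past 2-fold in the last 3 against 1, 1 and 3. With pileups summed over the pieces of a region, the genotype median in CMP/GMP turned to −0.24 and the cell type median in Cxcr3-/- to 0.17, with 6, 7, 4 and 12 past 2-fold in the same order. These sums count a broken region several times by their construction. At 2000 bp (5 regions) the medians were 0.16 for genotype in monocytes and −0.48 and −0.45 for cell type. Single regions were followed under background scaling only where a set rule named them. The shift is the same for every region of a comparison, so background scaling also turns others, such as Cep170. Among those followed whose interval left out 0, it turned for genotype in monocytes Sp4 (−0.076), Rn18s-rs5 (−0.24), Cpeb2 (−0.17) and Dipk2a (−0.071). For cell type in WT it turned Strn3 (0.69), Rn18s-rs5 (0.12), Nr3c1 (0.53), Fiz1 (0.42), Gm6410 (0.12), Dipk2a (0.61) and LOC108167694 (0.73). In Cxcr3-/- it turned Strn3 (0.0027), Sp3 (0.037), Nfe2l2 (0.048), Gm6410 (0.16) and LOC108167694 (0.0365). Which scaling is nearer the truth was not tested. A minimum of 60 tags or none, equal-length lists and other distances from a gene end changed no sign of these medians, but with no minimum the cell type median in WT was −0.12 against −0.09 over all regions, so the gap all but closed.

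No paired analysis was possible because each group has 1 library and the labels give no replicate numbers. Depth limits single ratios, and a region with no interval is under the caller's threshold, not shown to be closed.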

Other observations

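Below the 1500 bp minimum, 6 further regions of at least 1000 bp were called in CMP/GMP and in no monocyte library. The longest lay at one end of Cd69, an early activation antigen of leukocytes, with 1439 bp and 28 tags in WT and 39 in Cxcr3-/- CMP/GMP (chr6:129266002-129267605). At the 3′ end of Fosb, an immediate early gene whose product pairs with Jun, were 1025 bp with 64 and 87 tags (chr7:19302517-19303623), and at the 3′ end of Hnrnpa3, a splicing regulator, 1166 bp with 16 and 31 tags (chr2:75669401-75670682). A region between the ends of Slc35b2 and Hsp90ab1, a constitutive cytosolic Hsp90 gene, was called in Cxcr3-/- CMP/GMP alone, with 1085 bp and 43 tags (chr17:45566204-45567288). The others lay inside Magi1 (1089 bp, 56 and 69 tags) and 26412 bp from Tet2, a DNA demethylase gene (1027 bp, 36 and 81 tags). Of the 6, 2 are thus at a 3′ end of stated strand, as are the 4 very wide regions called in CMP/GMP alone.

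In monocytes alone, 2 regions of that width were called. One lay 546 bp from Acot13, a thioesterase gene, with 1128 bp and 75 tags in WT and 67 in Cxcr3-/- monocytes (chr13:24816266-24817409). The other lay inside Ipo5, a nuclear import receptor gene, with 1069 bp and 50 and 33 tags (chr14:120925396-120926464). These regions were singled out after their values were seen.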
